A study of Mus musculus with 8 samples.

Results

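Liver at 5 days after birth was compared between a hepatocyte knockout of Arid1a and wild type, on 3 of the 8 one-colour arrays of the series. These arrays were chosen by their titles: 2 knockout livers, each from 1 mouse (replicates 1 and 2), and 1 wild-type array, a pool of RNA from 2 mice. All mice were C57BL/6, kept in a specific-pathogen-free room and labelled male. The labels call the knockout hepatocyte-specific and do not name the driver of the deletion or the exons removed, and no agent was given to either genotype. The later arrays of the series, 2 at 2 weeks (1 per genotype) and 3 at 1 month (2 knockout livers and 1 wild-type pool), are used for the spread of the test and for levels at later ages. Of 41174 probes on the array, 26710 were well above background on at least 1 of the 3 five-day arrays and are described here, as 17777 genes with 1 probe each. Every level is a log2 normalised intensity, and every difference is a knockout minus the 5-day pool on that scale. With 3 arrays, the number of arrays limits the precision of each value.

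Arid1a encodes the large DNA-binding subunit of the BAF complex, a chromatin remodeller of the SWI/SNF family that moves nucleosomes at enhancers and promoters. The first days after birth are when the liver hands blood formation over to the bone marrow, slows its cell division and switches on the enzymes, transporters and plasma proteins of the adult hepatocyte. The comparison asks how the transcripts of a liver at this stage differ when hepatocytes lack Arid1a.

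The single Arid1a probe (A_51_P118671, accession NM_001080819, mm9 chr4:133235292-133235351, minus strand) read 9.67 in the pool, 9.47 in knockout replicate 1 and 9.58 in replicate 2. Both knockouts lay slightly below the pool, by 0.14 ± 0.16 on average (SE, 2 knockouts against 1 pool, limma adjusted p = 0.79), which is within the error. Whether this probe lies in the deleted part is not stated, so it checks the labels only weakly, and RNA from non-hepatocytes is part of every array. At 2 weeks the same probe read 9.35 in wild type and 8.77 in the knockout. At 1 month it read 9.35 in the pool against 8.83 and 8.78. The knockouts thus lay nearer to wild type at 5 days than later. The difference between 5 days and 1 month did not pass (limma adjusted p = 0.661), and its reason was not tested. The Arid1a paralogue Arid1b read 10.13, 10.13 and 10.14 in the pool, replicate 1 and replicate 2 at 5 days. Of 25 measured BAF subunit genes, 13 lay below the pool in both knockouts (52%) and 5 above (20%). Of all genes, 36.0% lay below in both and 36.0% above. The medians of the subunit genes were small, at −0.13 in replicate 1 and −0.06 in replicate 2. At an unadjusted limma p under 0.05, 1 was lower and 0 higher. The subunit Smarce1 read 11.35, 10.92 and 10.95, and Actl6a, a BAF subunit shared with other complexes, read 9.52, 9.05 and 8.98.

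The 3 arrays were not alike in sex and tissue content. Xist, the RNA of the inactive X chromosome, read 12.13 in the pool and 13.43 in replicate 1, and 1.74, not well above background, in replicate 2. The Y-linked genes Ddx3y (9.42, 1.93 and 10.69 in the pool, replicate 1 and replicate 2), Eif2s3y (8.34, 2.13 and 9.21) and Kdm5d (6.23, 3.34 and 7.22) were not well above background in replicate 1 alone. Replicate 1 therefore went against its label of male, and the pool read both Xist and the Y-linked genes. The X-linked genes Kdm6a, Kdm5c, Eif2s3x and Ddx3x, which have Y-linked partners, differed from the pool by −0.58 to 0.53 in either knockout. Replicate 1 lay on another slide than the pool and replicate 2, so that only the differences of replicate 2 are within a slide. They are given beside those of replicate 1 throughout and are also the values without replicate 1. Hepatocyte plasma protein genes marked all 3 livers: albumin (Alb) read 17.73, 17.89 and 17.88, and Apoa1 read 17.34, 17.25 and 17.39.

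Tested with limma over all 26710 probes, 0 passed at an adjusted p under 0.05 (0%). The smallest adjusted p was 0.0609, and 2728 had an unadjusted p under 0.05 (1299 higher and 1429 lower in the knockouts). The error of this test comes from the 2 knockout pairs at 5 days and 1 month, with 2 residual degrees of freedom, and a pool of wild-type mice enters it without a spread of its own. Without replicate 2, which leaves 1 residual degree of freedom and assumes that the remaining knockout varies like the 1-month pair, 137 probes passed (93 higher and 44 lower), 68 of them higher in replicate 1 only, and without replicate 1 the count was 0 (2788 at an unadjusted p under 0.05). With the authors' normalised values 54 probes passed (0.202%, limma), 5 higher and 49 lower. In 45 of those 49 both knockouts were not well above background. Of the genes named below and well above background on all 3 arrays, Sugct, Acot1, Cyp2c54, Slc22a7 and Rsph4a passed on the authors' values, as did a further probe of Serpina3k. When limma was fitted to the 23778 probes well above background on all 3 arrays alone, 0 passed with either source of values (2404 at an unadjusted p under 0.05 on the scanner values and 2437 on the authors' values).

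Since no gene passed, genes are described by size in each knockout. A gene counts as shared when both knockouts lay at least 2-fold from the pool on the same side, and as seen in 1 knockout when that one did and the other was under 1.5-fold on the same side or lay on the other side of the pool by any amount. The brighter side had to be well above background. Shared genes numbered 172 higher (0.968% of genes) and 301 lower (1.69%). In replicate 1 only, 506 genes were higher (2.85%) and 47 lower (0.264%). In replicate 2 only, 155 were higher (0.872%) and 125 lower (0.703%). These 1-knockout counts include 34 genes that lay at least 2-fold higher in one knockout and 2-fold lower in the other, Xist and Ddx3y among them. A gene that met the definition for each knockout was counted under replicate 2 alone, as these named genes were. Counted as probes, 252 were shared higher (0.943% of those tested) and 394 shared lower (1.48%), 663 were higher (2.48%) and 79 lower (0.296%) in replicate 1 only, and 233 were higher (0.872%) and 175 lower (0.655%) in replicate 2 only. Both knockouts were set against the same pool, so that any departure of the pool's own 2 mice also counts as shared. Of the shared genes, 7 higher and 6 lower were on the X or Y chromosome. Leaving out genes on X and Y hardly moved the shares. Of the 25863 probes that remained, 241 were shared higher (0.932%) and 385 shared lower (1.49%).

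**Figure D1:**
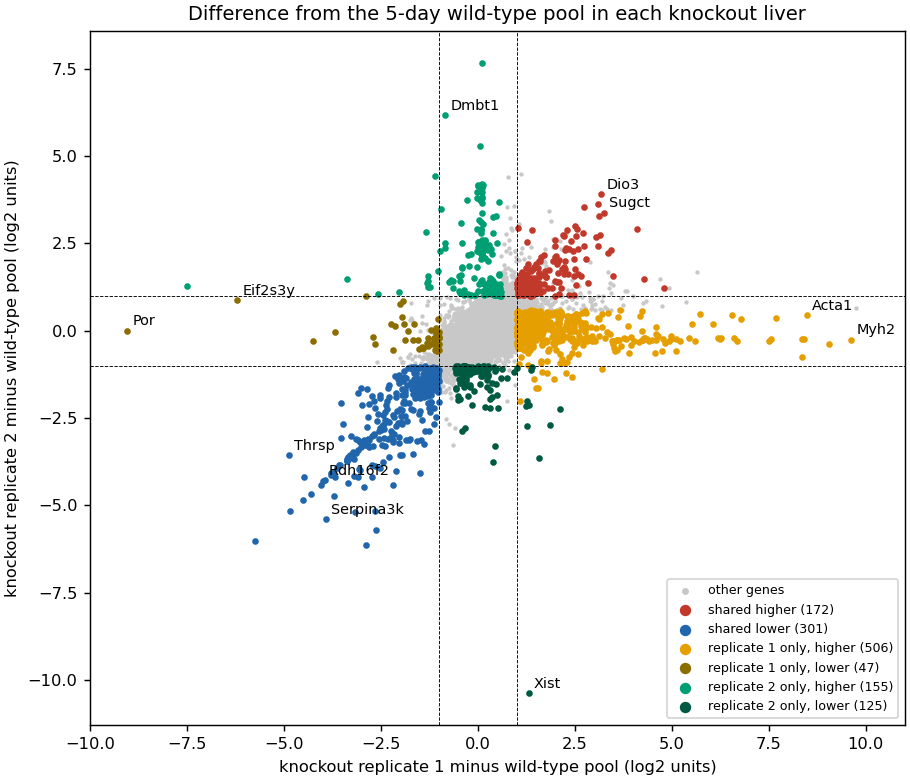
Each point is 1 of 17777 genes, placed by its difference from the 5-day wild-type pool in knockout replicate 1 (horizontal axis) and replicate 2 (vertical axis), both in log2 units, with dashed lines at 2-fold. The 172 shared higher and 301 shared lower genes lie along the diagonal, while 506 genes stretch to the right along the horizontal axis, higher in replicate 1 only.

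Among the shared higher genes, several act on hormones, Wnt signals or fatty acids. Dio3, the deiodinase that inactivates thyroid hormone, read 6.63 in the pool, 9.80 in replicate 1 and 10.54 in replicate 2, which is 9.03-fold and 15.1-fold above the pool (mean difference 3.54 ± 0.50, limma adjusted p = 0.203). Its antisense neighbour Dio3os read 7.35, 8.72 and 9.08, also above the pool in both. Wif1, a secreted inhibitor of Wnt ligands, read 8.96, 12.05 and 12.59. Sugct, a mitochondrial CoA transferase of glutarate metabolism, read 5.25, 8.50 and 8.63, and its difference of 3.31 ± 0.22 did not pass on the scanner values (limma adjusted p = 0.0664) and passed on the authors' normalised values (limma adjusted p = 0.045). Its second probe differed more, by 5.60, and likewise passed on the authors' values alone (limma adjusted p = 0.0336, against 0.0609 on the scanner values). The 3 genes lay far apart from the pool in both livers, with the knockouts within 1 log2 unit of each other.

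Acot1, a cytosolic acyl-CoA thioesterase and target of PPARA, read 9.86 in the pool against 12.42 and 12.78 in the knockouts (2.75 ± 0.21, limma adjusted p = 0.0751, and 0.045 on the authors' values). The mitochondrial paralogue Acot2 read 7.19, 8.17 and 8.68. Cyp2c54, a cytochrome P450 of the Cyp2c cluster whose members are close in sequence, read 6.10, 8.82 and 8.90 (2.76 ± 0.20, limma adjusted p = 0.0664, and 0.0483 on the authors' values). Slc22a28, of the organic anion transporter family, read 4.59, 8.70 and 7.50. These liver genes lay above the pool in both knockouts by 5.92-fold to 17.2-fold, Acot2 excepted, which was under 2-fold in replicate 1. Beyond hepatocyte metabolism, the adrenergic receptor Adra2a read 7.86, 10.60 and 11.41, and the transcription factor Olig1, best known from oligodendrocytes, read 4.60, 7.75 and 7.35. The smooth muscle protein Cnn1 read 4.61, 7.66 and 7.29, and the membrane glycoprotein Igsf1 read 6.81, 9.21 and 9.39.

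For 76 of the 172 shared higher genes the pool was not well above background, so that only a bound can be given, from 1.14-fold to 8.44-fold with a median of 1.86-fold. Such a bound sets the knockout mean against the higher of the pool's own reading and the lowest signal called well above background on that array. Penk, which encodes the enkephalin precursor, was at least 8.44-fold higher (3.87 in the pool, 6.98 and 7.16 in the knockouts), although another probe of the gene differed by 0.51 only. The glucose transporter gene Slc2a12 was at least 1.69-fold higher, the neuron navigator Nav3 at least 1.88-fold and the membrane receptor Dcbld2 at least 1.38-fold. Smaller shared differences that were measured on all 3 arrays included Enpep, the aminopeptidase that cleaves angiotensin II (7.53, 8.91 and 9.24), and the serine dehydratase Sds (10.49, 11.91 and 11.79). Raet1d (7.22, 9.21 and 9.81) and Raet1e (8.95, 10.22 and 11.51), ligands of the receptor NKG2D, were shared as well, and the 2 are near-identical copies whose probes may share signal. Enpep, Sds and both Raet1 genes were singled out after their values were seen.

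Shared lower genes were more numerous and included plasma proteins, transporters and enzymes of the mature hepatocyte. Serpina3k, a serine protease inhibitor secreted into plasma, read 12.56 in the pool, 8.63 in replicate 1 and 7.15 in replicate 2, 15.2-fold and 42.4-fold below the pool (−4.67 ± 0.65, limma adjusted p = 0.2). Apoc3, an apolipoprotein of triglyceride-rich lipoproteins, read 13.15, 9.80 and 8.78 (−3.86 ± 0.46, limma adjusted p = 0.153), and its second probe gave −3.81. The protease inhibitors Mug1 (13.77, 10.88 and 7.63) and Mug2 (12.58, 9.91 and 7.42), close paralogues whose probes may share signal, were lower by more in replicate 2 than in replicate 1. Hamp, the iron hormone hepcidin, read 9.53, 8.04 and 7.23, and the complement component C4b read 13.65, 11.53 and 9.62. In each of these genes both knockouts lay below the pool and replicate 2 lay lowest.

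Of the enzymes, the asparaginase Aspg read 11.79, 8.08 and 7.06 (its other probe differed by −1.05), and the retinol dehydrogenase family member Rdh16f2 read 10.31, 6.32 and 6.02. Tdo2, which opens the tryptophan ring, read 11.07, 8.25 and 7.80 (−3.05 ± 0.24, limma adjusted p = 0.0794). Dio1, the deiodinase that makes active thyroid hormone, read 10.96, 8.04 and 7.67, the opposite side from Dio3. Thrsp, a promoter of fatty acid synthesis, read 7.44, 2.56 (not well above background) and 3.87. The carboxylesterases Ces1f (9.70, 6.51 and 5.55) and Ces2g (9.78, 6.99 and 6.44) and the P450 genes Cyp4f14 (10.62, 7.52 and 6.42) and Cyp2a5 (9.38, 7.38 and 5.81, a near-identical copy of Cyp2a4) lay below the pool by 4-fold to 18.3-fold. The anion transporter Slc22a7 read 11.47, 8.20 and 8.44, and the estrogen receptor Esr1 read 8.70, 5.62 and 4.72. Slc22a7 was among the tightest of these, at −3.15 ± 0.19 (limma adjusted p = 0.0664, and 0.0379 on the authors' values). Rsph4a, a radial spoke protein of motile cilia, read 7.59, 4.44 and 4.50 (−3.12 ± 0.15), with a limma adjusted p of 0.0609, the smallest of the fit, which other probes share, and of 0.0345 on the authors' values. Part of its error comes from the 1-month knockouts, which were not well above background for this gene (2.10 and 2.15). Mug1, Mug2, Hamp, C4b, Dio1, Tdo2, Ces1f, Ces2g, Cyp4f14, Cyp2a5, Slc22a7, Esr1 and Rsph4a, like Dio3os, were named after their values were seen, to show shared lower genes that were measured on all 3 arrays.

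Of the 301 shared lower genes, 168 were well above background on all 3 arrays and 114 were not well above background in either knockout. For the latter, the bounds ran from 1.13-fold to 13.1-fold with a median of 2.19-fold. The vitamin D 24-hydroxylase Cyp24a1 was at least 5.47-fold lower (6.35 in the pool, 1.86 and 2.16 in the knockouts) and the ephrin ligand Efna3 at least 5.14-fold (6.25, 2.20 and 1.83). Bounds for Kl, the FGF coreceptor klotho (3.39-fold), the serotonin receptor Htr1a (3.07-fold) and the receptor Gpr37 (3.15-fold) rested on pool readings of 5.51 to 5.66. Cst8, Atp13a5 and Sdr16c5 were lower by at least 2.34-fold, 2.95-fold and 2.33-fold. These 8 genes passed on the authors' values (limma adjusted p = 0.0298 to 0.0338) and did not on the scanner values. None was well above background in any knockout at 5 days or 1 month. Each gene's own spread in the test therefore came from dim readings alone, and its p-value adds nothing to the bound. Most of these genes are known from kidney, brain or skin. By the grouping used here, all 8 were well above background at 5 days on the pool's array alone.

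**Figure D2:**
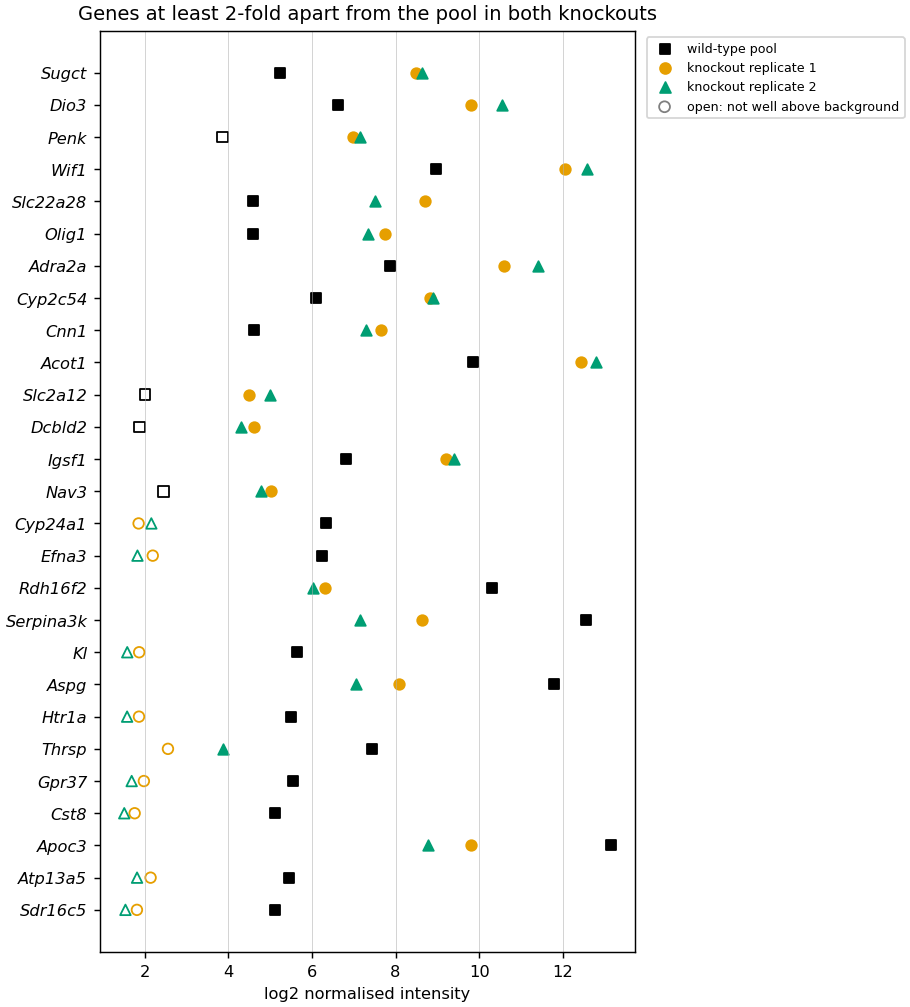
Levels (log2 normalised intensity) of the 14 shared higher genes, above, and 13 shared lower genes, below, with the largest smaller-of-2 differences. A square stands for the wild-type pool, a circle for knockout replicate 1 and a triangle for replicate 2; open marks were not well above background. Both knockouts lie right of the pool for the upper 14 and left of it for the lower 13, and for 8 of these 13 both knockouts are open marks near the bottom of the scale.

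Smaller differences were spread over whole gene groups, described here by lists of genes of 1 function or cell type. Both livers were again set against the same pool, so that a departure of its own 2 mice moves a list alike in both. With 1 pool, this cannot be told apart from a difference of the knockouts. Cell cycle genes lay lower in both livers. Of 55 measured, 50 were below the pool in both knockouts (90.9%) and 3 above, where 36.0% of all genes were below in both, and their medians were −0.58 in replicate 1 and −0.47 in replicate 2 against 0.00 for all genes. Single members passed no threshold, and 17 were lower and 0 higher at an unadjusted p under 0.05, beside 5.72% of all genes lower and 4.58% higher. The transcription factor E2f1, which opens the S phase programme, read 7.45, 6.56 and 6.70, and Cdk1, the kinase that starts mitosis, read 9.34, 8.43 and 8.65. The kinetochore protein Nuf2 read 9.54, 8.69 and 8.88, and cyclin D1 (Ccnd1) read 10.03, 9.32 and 9.01. The 4 genes of smallest p lay 0.66 to 1.02 below the pool in either knockout. In bulk liver, fewer cells of a type and less RNA per cell cannot be told apart.

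The promoters of cell cycle genes are shown because these genes lay lower together. The 250 bases upstream of the annotated start were taken from RefSeq on GRCm38.p6, for 45 of the 55 genes. Both strands were searched for CCAAT, the box bound by NF-Y, and TTTGAA, the cell cycle homology region. Of the 45 genes, 32 held CCAAT in at least 1 promoter (71.1%, against 37.5% of all 27025 genes with a promoter). TTTGAA was held by 12 of them (26.7% against 18.3%). The E2F motifs TTTCCCGC and TTTGGCGC were each in 2 (4.44%, against 1.03% and 0.485%). The Cdk1 promoter, chr10:69352913-69353162 on the minus strand, is written 5′ to 3′ with its CCAAT and TTTGAA matches on either strand in capitals.
Cdk1: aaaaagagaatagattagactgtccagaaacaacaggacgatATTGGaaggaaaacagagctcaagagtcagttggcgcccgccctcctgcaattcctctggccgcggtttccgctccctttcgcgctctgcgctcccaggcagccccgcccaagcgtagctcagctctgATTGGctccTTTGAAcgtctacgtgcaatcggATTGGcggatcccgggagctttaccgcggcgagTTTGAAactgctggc
A match describes the letters and not a bound site, and the arrays measured no binding.

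Erythroid genes, which report the blood formation still under way in the newborn liver, also lay lower. Of 38 measured, 33 were below the pool in both knockouts (86.8%, against 36.0% of all genes) and 2 above, with medians of −0.61 and −0.53. At an unadjusted limma p under 0.05, 15 were lower and 0 higher, beside 5.72% and 4.58% of all genes. The erythroid translocator protein Tspo2 read 11.09, 10.15 and 10.27, the carbonic anhydrases Car2 read 12.23, 11.48 and 11.41 and Car1 8.21, 7.48 and 7.25, and the red cell membrane protein Epb42 read 7.12, 6.20 and 6.38. All 38 were well above background on each of the 3 arrays, and their summed level was 18.54 in the pool, 18.37 in replicate 1 and 18.30 in replicate 2. Some cell cycle RNA of a newborn liver belongs to dividing erythroid cells, and the part of one list in the other was not tested. AGATAA, the site of GATA factors, was present on either strand in the 250 bases upstream of 9 of 25 erythroid genes (36.0%, against 11.4% of all genes with a promoter). Among them was Epb42 (chr2:121036878-121037127, minus strand), shown with its match in capitals.
Epb42: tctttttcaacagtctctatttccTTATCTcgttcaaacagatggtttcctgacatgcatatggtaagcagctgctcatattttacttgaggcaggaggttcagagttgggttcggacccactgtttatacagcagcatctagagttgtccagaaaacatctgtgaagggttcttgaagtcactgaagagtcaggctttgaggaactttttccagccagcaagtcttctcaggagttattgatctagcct

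Genes of cholesterol synthesis, which SREBP2 controls as a group, lay lower in 19 of 25 cases in both knockouts (76.0%, against 36.0% of all genes) and higher in 3. Their medians were −0.45 and −0.35. At an unadjusted limma p under 0.05, 5 were lower and 0 higher, beside 5.72% and 4.58% of all genes. Insig1, the sterol sensor's retention protein, read 9.33, 8.49 and 8.50, and the enzymes Msmo1 (13.40, 12.68 and 12.69), Mvd (9.28, 8.39 and 8.59) and Sqle (11.38, 10.54 and 10.71) were lower by similar amounts in both livers. Hmgcs1, which makes the first dedicated intermediate, read 14.29, 13.42 and 13.38. The sterol response element, written TCACNCCAC, was upstream of 1 of 17 of these genes (5.88%, against 1.22% of all genes with a promoter). This gene was Hmgcs1 (chr13:119690101-119690350, plus strand), shown with the element in capitals.
Hmgcs1: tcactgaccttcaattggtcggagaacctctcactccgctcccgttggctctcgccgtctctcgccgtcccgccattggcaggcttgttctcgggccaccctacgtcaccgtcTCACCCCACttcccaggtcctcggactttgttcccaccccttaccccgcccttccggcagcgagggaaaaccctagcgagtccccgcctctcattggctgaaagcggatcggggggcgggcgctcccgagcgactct
Subunits of oxidative phosphorylation lay slightly lower, in 55 of 75 cases in both knockouts (73.3%, against 36.0% of all genes), with medians of −0.19 and −0.11. At an unadjusted limma p under 0.05, 1 was lower and 0 higher, a smaller share than the 5.72% and 4.58% of all genes.

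Plasma protein genes of the hepatocyte, as a group, lay near the pool. The 23 of them had medians of 0.01 and 0.06, with 11 higher and 7 lower in both knockouts, and only Apoc3 among them was a shared gene. The fetal plasma protein Afp read 17.69, 17.71 and 17.77, and fetal liver and imprinted genes had medians of 0.02 and 0.00 over 25 genes. Spink1, a trypsin inhibitor of that list, was the exception at 11.65, 8.17 and 8.97. Of 50 cytochrome P450 genes, 2 were shared higher and 7 shared lower, where 0.968% and 1.69% of all genes were, with medians of −0.01 and 0.00. Cyp2a12 read 13.14, 11.03 and 11.23 and Cyp1b1, not well above background in the pool, read 2.55, 5.34 and 4.62. Of 44 phase II enzymes and transporters, 2 were shared higher and 7 shared lower, beside the same shares of all genes (0.968% and 1.69%). The carboxylesterases Ces2c (9.07, 10.82 and 10.61) and Ces2a (10.83, 12.42 and 12.20) lay above the pool, on the other side from the carboxylesterases Ces2g and Ces1f, and the efflux pump Abcg2 (12.06, 10.81 and 10.82) lay below it.

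Acute phase and complement genes had 8 shared lower members of 45 and 0 shared higher, where 1.69% of all genes were shared lower, and medians of −0.20 and −0.23. Saa4, a serum amyloid protein, read 11.28, 9.71 and 9.74, the terminal complement component C9 read 8.39, 6.90 and 6.47, and the interleukin 6 receptor Il6ra read 7.42, 6.49 and 6.49. For the protease inhibitor A2m (6.38, 4.35 and 3.33) both knockouts were not well above background. In bile acid metabolism, the conjugating enzyme Baat (7.54, 6.17 and 6.22) and the uptake carrier Slco1a4 (8.67, 7.59 and 6.97) were shared lower among 23 genes, beside 1.69% of all genes. In growth hormone signalling, the transcription factor Stat5a (8.96, 7.27 and 7.85) and the prolactin receptor Prlr (10.48, 9.25 and 8.15) were shared lower among 20, beside the same 1.69%. Car3, a carbonic anhydrase of the adipocyte list that liver also expresses, read 14.73, 13.36 and 13.24, and the lipid droplet genes Cidec (9.66, 7.96 and 8.61) and Cidea (6.36, 4.68 and, not well above background, 2.83) were shared lower too. They were the 3 shared lower genes among 14 in that list, beside 1.69% of all genes. Nqo1, a target of NRF2, read 7.53, 5.82 and 5.86, and was the only shared gene of the 22 in its list, whose medians were −0.19 and 0.01. The interferon-induced protease Usp18 read 10.10, 8.93 and 8.59, and was the only shared gene of 28 interferon response genes, whose medians were 0.00 and −0.38.

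Higher in both knockouts were cholangiocyte and ductular genes in 19 of 27 cases (70.4%, against 36.0% of all genes), with medians of 0.15 and 0.42 and 3 shared higher, beside 0.968% of all genes. Anxa13, an annexin of epithelia, read 7.06, 8.61 and 8.86, the keratin Krt18, which hepatocytes also express, read 15.77, 16.42 and 16.42, and the fibrocystin gene Pkhd1 read 8.77, 9.38 and 9.83. Periportal genes lay higher in both knockouts in 12 of 20 cases (60.0%, against 36.0% of all genes) and lower in 3. Etnppl (11.69, 12.77 and 12.74) and Sds were the 2 shared higher among the 20, beside 0.968% of all genes. The urea cycle enzyme Ass1 read 14.28, 14.94 and 14.90. Perivenous genes and Wnt targets were mixed, with medians of 0.07 and 0.05. The Wnt feedback inhibitor Notum (7.13, 6.25 and 6.29) and the ammonium transporter Rhbg (10.43, 8.18 and 7.38) lay below the pool and Wif1 above it.

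Immediate early genes lay higher in both knockouts in 17 of 29 cases, where 36.0% of all genes did, with medians of 0.41 and 0.25 and 0 shared genes. Jun read 7.92, 8.83 and 9.21 and Jund 11.72, 12.43 and 12.72, while Fosb, dim in both knockouts, read 4.08, 3.18 and 3.24. Stellate cell and fibrosis genes had medians of 0.01 and 0.13 over 45 genes, with fibronectin (Fn1) at 12.38, 12.89 and 13.11 and Ecm1 at 14.01, 13.38 and 13.40. Kupffer cell genes had medians of −0.08 and −0.23 over 24 genes, and sinusoidal endothelial genes 0.12 and 0.09 over 25.

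**Figure D3:**
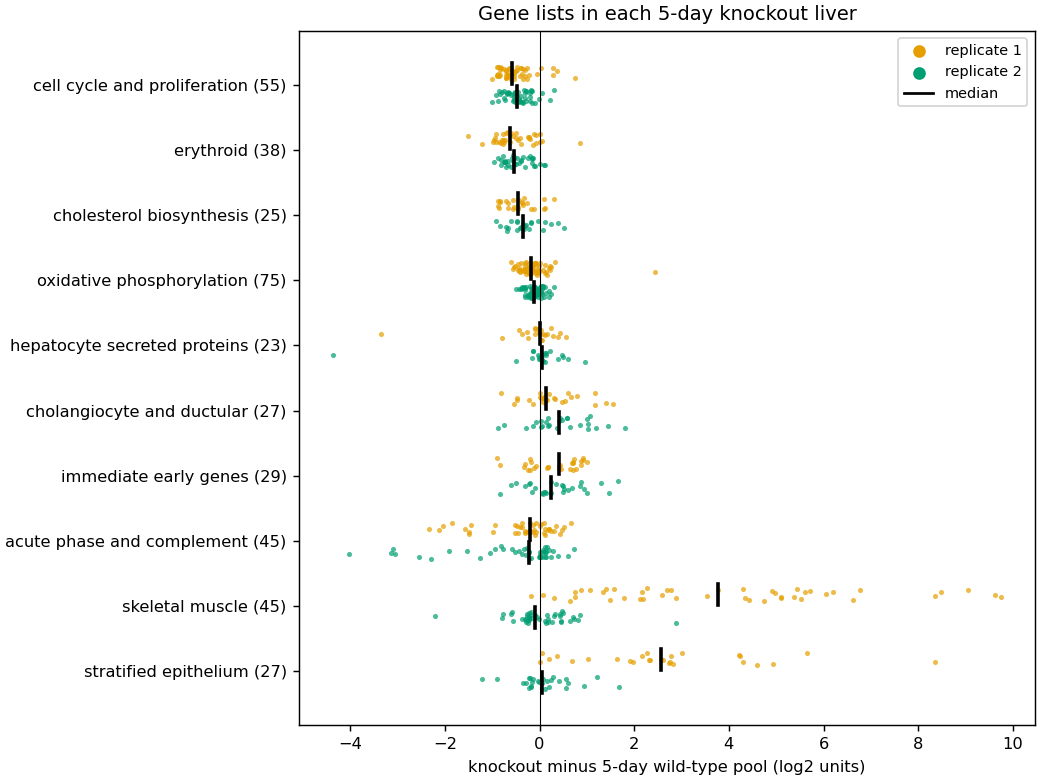
Difference of each list member from the 5-day wild-type pool (log2 units) in knockout replicate 1 and replicate 2, with a black bar at each median; the number of measured genes follows each list's name. Cell cycle, erythroid and cholesterol genes lie left of 0 in both livers, whereas skeletal muscle and stratified epithelium genes lie to the right in replicate 1 and near 0 in replicate 2.

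The genes higher in replicate 1 only were led by muscle and skin-type epithelium. Of 45 skeletal muscle genes, 33 were higher in replicate 1 only, beside 2.85% of all genes, and the medians were 3.76 in replicate 1 and −0.09 in replicate 2. The fast myosin Myh2 read 2.14 in the pool, 11.75 in replicate 1 and 1.88 in replicate 2. The myosin light chain Myl1 (3.37, 12.42 and 2.99), skeletal actin Acta1 (3.79, 12.27 and 4.23), the calcium pump regulator Sln (1.80, 10.21 and 1.57) and troponin C (Tnnc2; 4.80, 13.15 and 4.04) were high in replicate 1 alone. Myoglobin (Mb) read 2.08, 8.86 and 2.40, and muscle creatine kinase (Ckm) differed from the pool by 6.19 and −0.21. Well above background were 20 of the 45 genes in the pool, 44 in replicate 1 and 22 in replicate 2, and the summed level was 11.44, 15.72 and 11.51.

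Keratins of stratified epithelium went with them. Krt15 read 1.72, 10.09 and 1.49, and Krt5, a keratin of basal cells, 4.25, 8.49 and 4.25. Of 27 such genes, in a list added after the data were seen, 18 were higher in replicate 1 only, beside 2.85% of all genes. Their medians were 2.56 and 0.04, and 12, 26 and 13 were well above background in the pool and the knockouts. These lists name tissues other than liver, and their part in other differences of replicate 1 was not tested. The cell cycle, erythroid and cholesterol medians of replicate 2, which lacks this muscle signal, are given above.

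Few genes were lower in replicate 1 only. Por, the reductase that supplies electrons to microsomal P450 enzymes, read 14.49 in the pool, 5.45 in replicate 1 and 14.49 in replicate 2, by a single probe, and at least 14.54 on the 5 later arrays. The Y-linked Eif2s3y and Kdm5d, given above, were also in this class. Ddx3y lay further below the pool in replicate 1, by −7.49, but counts as higher in replicate 2 only, where it differed by 1.27. The class I gene H2-Q1, a member of a family of near-identical copies, read 5.71, 2.03 and 5.67. Tmem150c read 4.65, 1.94 and 4.46.

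No list held more than 2 of the genes higher in replicate 2 only. Dmbt1, a mucosal scavenger receptor, read 3.17, 2.33 and 9.35, the proton pump subunit Atp6v1g3 read 3.22, 2.13 and 7.65, and the granin Chgb read 1.79, 1.89 and 5.89. Tescl (5.82), the exonuclease Trex2 (6.16) and Tmco5b (5.71) likewise were well above background on the array of replicate 2 alone of the 3. Hmox1, the haem oxygenase, differed by 0.67 in replicate 1 and 2.50 in replicate 2, and so counted in neither class. Lower in replicate 2 only, besides Xist and its antisense Tsix (8.08, 9.66 and 4.43), were Jhy (5.48, 5.86 and 1.73), the NKG2D ligand H60a (7.34, 7.77 and 4.03), Cyp2g1 (10.19, 9.84 and 7.40) and the class II gene H2-Ea (4.63, 5.88 and 1.91). Of 28 neutrophil and granulocyte genes, 7 were lower in replicate 2 only, where 0.703% of all genes were, with medians of −0.03 and −0.82. The granule protease Ctsg read 10.80, 10.53 and 9.69, lipocalin Lcn2 read 9.70, 9.42 and 8.45, and the calprotectin gene S100a8 read 14.60, 14.85 and 13.84. All 28 were well above background on each array, and their summed level was 17.95, 18.00 and 17.15.

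The later arrays show how the 5-day levels compared with the course of development. On the wild-type arrays Serpina3k read higher with age, from 12.56 at 5 days to 17.89 at 2 weeks and 18.46 at 1 month, and the later knockouts read 17.96, 18.58 and 18.64. Apoc3 read 13.15, 17.07 and 17.16 in wild type and 17.12, 16.99 and 17.11 in the later knockouts. Aspg (11.79, 14.44 and 14.71 in wild type, later knockouts 13.50 to 15.13), Mug1 (13.77, 17.34 and 17.70, later knockouts 17.05 to 17.88), Tdo2 (11.07, 14.33 and 13.82, later knockouts 13.92 to 14.40) and Hamp (9.53, 15.22 and 13.77, later knockouts 13.38 to 14.55) also read higher later. These 6 genes, picked as examples, were lower at 5 days than later in wild type, and further below in the 5-day knockouts, while the later knockouts lay within 1 log2 unit of the wild type of their age. Some shared higher genes also rose with age in wild type and went the other way at 5 days. Slc22a28 read 4.59, 8.94 and 12.52 in wild type, against 8.70 and 7.50 in the 5-day knockouts. Cyp2c54 read 6.10, 9.60 and 10.56, against 8.82 and 8.90. Acot1 read 9.86, 12.73 and 13.01, against 12.42 and 12.78.

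Other shared genes kept their side. Of the 172 shared higher genes, 34 (19.8%) were at least 2-fold above the 1-month pool in both 1-month knockouts, as were 2.42% of all genes, and 39 (22.7%) were so in the 2-week knockout, as were 3.31%. Of the 301 shared lower genes, 52 (17.3%) were at least 2-fold lower in both 1-month knockouts, as were 2.19% of all genes, and 92 (30.6%) in the 2-week knockout, as were 2.81%. The 3 ages have wild-type arrays of their own, so these counts do not share a control. The counts and the shares of all genes did not require a signal above background at the later ages. Differences between dim readings are thus included, as for Sdr16c5 at 1 month (4.32 against 2.03 and 2.10, all not well above background). Wif1 read 6.52 in wild type and 12.43 in the knockout at 2 weeks, and 3.48 against 10.30 and 10.84 at 1 month. Sugct read 4.64 against 7.24, then 5.22 against 8.40 and 8.75, and the brush border protocadherin Cdhr2, at 6.16, 8.39 and 8.87 at 5 days, read 2.30 against 6.14 and 6.00 at 1 month. Dio3 read 2.42 in the 1-month pool against 6.48 and 7.34, Adra2a 2.00 against 6.30 and 4.45, and Olig1 2.48 against 4.90 and 6.39. For these genes other than Sugct the 1-month pool was not well above background.

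Among the shared lower genes that stayed lower, the cyclic GMP phosphodiesterase Pde9a read 8.21, 5.35 and 5.44 at 5 days and 9.73 against 7.63 and 6.38 at 1 month. The calcium-binding protein Caln1 read 9.35, 7.16 and 6.23, then 9.10 against 6.92 and 6.55. Grin3b, an NMDA receptor subunit, read 6.59, 4.14 and 4.19, then 7.24 against 3.78 and 3.73. Hamp2, the second hepcidin gene, read 7.86, 5.13 and 4.01, then 16.27 against 11.25 and 13.50, and Ube2u (at least 2.02-fold lower at 5 days) read 6.83 against 3.60 and 2.81. Grin3b and Ube2u were not well above background in either 1-month knockout, nor was Grin3b in replicate 1 or Hamp2 in replicate 2 at 5 days. Rdh16f2 completed this set, at 12.80 against 10.52 and 9.15 at 1 month.

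**Figure D4:**
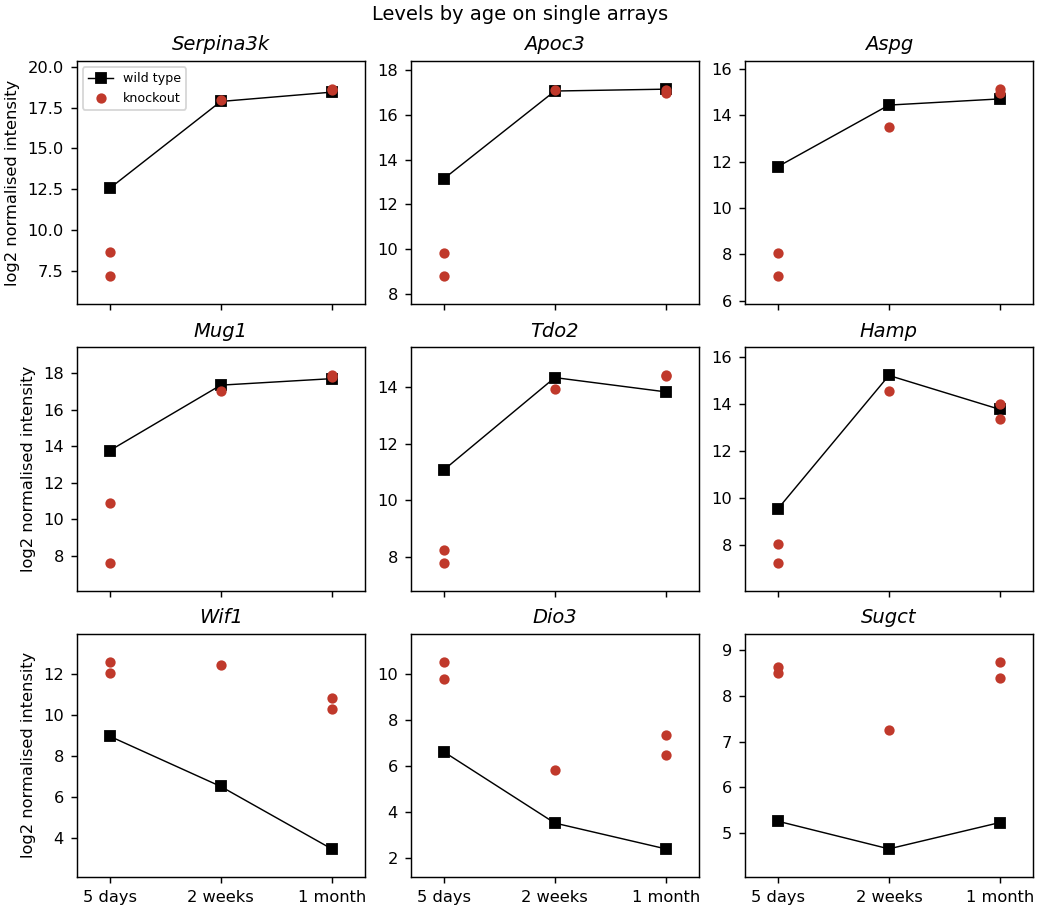
Levels (log2 normalised intensity) on single arrays at 5 days, 2 weeks and 1 month, with black squares joined by a line for wild type and red circles for knockouts, 1 panel per gene with its own vertical scale. The upper 6 genes, picked as examples, lie below the pool in both 5-day knockouts and near the wild type later, while Wif1, Dio3 and Sugct lie above wild type in all 5 knockouts.

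The knockout difference at 5 days was set against that at 1 month in the same fit. Of 26710 probes 0 passed (0%, limma, smallest adjusted p = 0.166), and 2611 had an unadjusted p under 0.05. The imprinted growth genes H19 and Igf2 had the smallest p on the lower side. H19 read 16.97, 16.67 and 16.84 at 5 days, and 5.63 in the 1-month pool against 13.37 and 13.04 (difference of differences −7.79 ± 0.31, limma adjusted p = 0.166). Igf2 read 15.91, 16.06 and 16.03 at 5 days, and 3.55, not well above background, against 7.25 and 7.10 at 1 month. In the 5-day knockouts both genes lay within 0.30 of the pool. Rsph4a, Kl and Efna3 followed, all not well above background at 1 month in either genotype.

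On the higher side stood Plk3, a stress-responsive kinase, at 8.95, 11.20 and 11.27 at 5 days and 12.95 against 9.79 and 10.23 at 1 month, so that both knockouts lay above the pool at 5 days and below it at 1 month (5.22 ± 0.34). Cyp7b1, an oxysterol hydroxylase of bile acid synthesis that is male-biased in adult liver, read 7.05, 6.90 and 6.96 at 5 days and 14.39 against 10.27 and 9.92 at 1 month. Adamts16, dim in the 5-day pool and in the 1-month knockouts, read 4.18, 5.13 and 5.01, then 5.81 against 2.25 and 2.62, and the heat shock gene Hspa1a, which has a near-identical copy in Hspa1b, read 5.92, 6.80 and 6.63, then 11.24 against 9.24 and 9.15. Clps, a pancreatic colipase, read 4.44, 6.79 and 6.77 at 5 days, while the 17 pancreatic acinar genes had medians of 0.13 and 0.03 and summed levels of 13.02, 13.23 and 13.56. Among the gene lists, cell cycle genes lay below wild type at 1 month too, with medians of −0.90 and −1.06, and at 0.20 in the 2-week knockout. Erythroid medians were 0.48 at 2 weeks and 0.21 and 0.39 at 1 month.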

How the data were processed

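Liver RNA was labelled with Cy3 and hybridised to one-colour Agilent arrays, per the labels. Per the file headers, Feature Extraction 10.7.3.1 gave the deposited signal intensity of each spot, with probe coordinates on mm9. The authors' value table holds deposited log2 values of 41267 probes, whose sorted columns differ by at most 0.0081, whose normalising tool the sources used here do not give. It had 0 columns without a sample. It tracked the scanner values (r = 0.999 to 1.00) and served as an alternative.

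Values used were log2 of the processed intensity minus each array's 75th percentile. No spot was saturated (0), 55.7% to 62.4% of probes per array were well above background, and the percentiles were 263 to 421. Outlier flags removed 82 probes. RefSeq accessions named 27578 probes and symbols 6076, and 7520 kept the file's name. For genes with several probes (6233) the brightest was used.

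A fit with limma 3.58.1 in R 4.3.3, tested on simulated data, covered all 8 arrays in 6 groups, with Benjamini-Hochberg adjustment at 0.05. Its p-values measure only the spread within the knockout pairs, which the labels describe as individual mice. Genes, lists and tests were chosen with earlier results of these data known. Named were the 14 shared genes per direction with the largest smaller difference, 6 per direction for each knockout alone, 6 per direction kept at later ages, 5 per direction for the difference from 1 month, and up to 4 per described list by smallest p, plus exceptions stated in the text. Of these, clones and predicted genes were left out, and the values of some others are not reported here. Of 41 lists, 1114 members were measured, and 1 more list was added. Figures used matplotlib 3.10.9 in Python 3.11.15.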

Additional observations from a re-analysis of the deposited data

Results flagged for a closer look

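Several values lay on one side of wild type in both 5-day knockouts and on the other side in both 1-month knockouts. The cholesterol synthesis median was lower at 5 days by 0.40 on average and higher at 1 month (0.42 and 0.34), which puts the ages −0.78 apart. Erythroid genes differed between the ages by −0.87, fatty acid and triglyceride synthesis genes by −0.85 (medians −0.34 and −0.27 at 5 days, 0.58 and 0.50 at 1 month) and oxidative phosphorylation genes by −0.46 (0.31 and 0.31 at 1 month). Immediate early genes differed by 0.94, with medians of −0.56 and −0.67 at 1 month. The difference was not tested for these lists. Among single genes, Plk3 differed by 5.22 (limma adjusted p = 0.166) and Sult3a1, a female-biased sulfotransferase, by −6.41 (limma adjusted p = 0.33). Sult3a1 read 7.18, 4.02 and 2.00 at 5 days, and 1.93 against 4.36 and 3.97 at 1 month, where the wild type was not well above background.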

How the results depend on the processing

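No paired analysis was possible because the wild type at 5 days is a single pool and the compared groups share fewer than 2 replicate numbers. The count of probes past the test at 5 days was 0 to 137 when 1 knockout array at either age was left out, 54 in the value table, 1 with normexp and quantile normalisation and 4 with a trended and robust variance (limma), and the difference from 1 month gave 1 under the last. Class counts here are of probes, against 252 shared higher and 394 shared lower. With normexp the shared counts were 75 and 160 and the 1-knockout counts 244 and 24 (replicate 1, higher and lower) and 46 and 40 (replicate 2), and, counted as genes, 7 shared higher and 24 shared lower were kept 2-fold at 1 month (34 and 52 in the report). At 3-fold the shared counts were 70 and 195 and the 1-knockout counts 317, 31, 99 and 41, and at 1.5-fold the shared counts were 935 and 1065. Over probes well above background on all 3 arrays, an alternative chosen after seeing the data, 143 and 219 were shared, 315 and 36 were in replicate 1 only and 81 higher in replicate 2 only. Requiring 2 of 3 arrays gave 252 shared higher, 245 shared lower, 373 higher in replicate 1 only and 99 higher in replicate 2 only. The value table gave 135 lower in replicate 1 only. The erythroid median was −0.49 with normexp, and −0.61 to −0.53 with 1 knockout left out. The same ranges were −0.58 to −0.47 for cell cycle, −0.45 to −0.35 for cholesterol and −0.09 to 3.76 for skeletal muscle genes. With 1 five-day knockout left out, 3 genes changed sign: Apoa1 ran from −0.090 to 0.051 (the latter also with slide as a block), Arid1b from −0.0015 to 0.012 and S100a8 from −0.76 to 0.25. The cause of these shifts was not tested. Dim signals limit the genes given as bounds.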
